A study of Mus musculus with 8 samples.

Results

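The 9 Polycomb genes Ezh2, Eed, Suz12, Jarid2, Bmi1, Rnf2, Cbx2, Cbx7 and Cbx8 were taken by name, and all of them were found among the 22359 protein-coding genes of the mm9 annotation. Their H3K4me3 was read within 1 kb of the transcription start. Libraries came from wild-type (wt) TC-1 mouse embryonic stem cells (mESCs) and from Men1-ko mESCs called 3.2N, which lack menin. They also came from the pancreatic islet-like endocrine cells (PILECs) that each of these lines gave on differentiation in culture. All 4 cell populations share the genetic background 129S6/SvEvTac, and the mESCs had been freed of their feeder cells. Each genotype is 1 line and each condition is 1 H3K4me3 library with its own input, so genotype and line cannot be told apart. There were no replicates, and the intervals given are 95% intervals that cover counting error only and compare libraries, not conditions.

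Polycomb proteins keep developmental genes silent, among them the Hox genes in mESCs. Polycomb repressive complex 2 (PRC2) methylates lysine 27 of histone H3, and Polycomb repressive complex 1 (PRC1) binds this mark and ubiquitinates histone H2A. Menin belongs to the MLL1 and MLL2 complexes, which work in the opposite sense and trimethylate lysine 4 of histone H3 at starts (H3K4me3), a mark of active and poised promoters.

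The H3K4me3 libraries held 2432377 to 18773635 tags and the inputs 3744616 to 19016697, with the shallower libraries all from mESCs. Levels are tags per 1000000 tags of the library (RPM) in a window of the same length for every gene. Over exons 3 to 8 of the targeted gene, Men1, the inputs of wt mESCs and wt PILECs held 17 and 22 tags, and those of the menin-null cells held 0 and 0. The 6 markers of mESCs summed to 220 and 241 RPM in the mESC libraries and to 11.6 and 9.61 RPM in the PILEC libraries. The 10 islet markers summed to 60.4 and 63.7 RPM in mESCs and 46.4 and 48.0 RPM in PILECs, with 5, 3, 4 and 4 of them over 5 RPM. The highest of the islet markers was at 20.4 RPM in wt and 19.3 RPM in menin-null PILECs. Among the hormone genes of islets, Ins1, Ins2, Gcg and Iapp were at 0.213 to 1.24 RPM in PILECs. The list also holds the hormone gene Sst, whose value is not given here. Ins1 and Gcg were below their input in both PILEC populations, Iapp in menin-null PILECs, and Ins2 was at 0.906 and 1.24 RPM against 0.421 and 0.717 RPM of input. Neural markers summed to 67.0 and 84.7 RPM in mESCs and 97.2 and 94.4 RPM in PILECs. The 5 fibroblast markers summed to 20.56 and 23.60 RPM in mESCs and 24.98 and 23.64 RPM in PILECs. Of these, 1 was over 5 RPM in each mESC library, and 3 and 2 in the PILEC libraries. The highest of them was at 10.7 and 16.5 RPM in mESCs and 6.71 and 6.79 RPM in PILECs. Muscle markers summed to 19.3 and 16.2 RPM in mESCs and 3.94 and 4.02 RPM in PILECs. Markers of endoderm and liver summed to 12.3 and 9.38 RPM in mESCs and 7.35 and 10.97 RPM in PILECs. The H3K4me3 library of menin-null mESCs stood apart, with 4.17% of tags at a shared position against 11.4% to 11.5% in the others, and with 48.7% of tags near starts against 37.7% to 41.0%.

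All 9 genes carried H3K4me3 in all 4 libraries. The lowest value was 11.3 RPM, for Cbx7 in menin-null PILECs, and the highest was 77.3 RPM, for Ezh2 in menin-null mESCs. The inputs of the same windows lay between 0.421 and 4.71 RPM. The median of the 9 genes was 54.3 RPM (wt) and 60.6 RPM (menin-null) in mESCs, and 43.2 and 42.6 RPM in PILECs. The medians of the 14053 protein-coding genes with a mean of at least 2 RPM (the tested genes) were 28.8, 33.6, 30.5 and 27.8 RPM. In the same order, 8, 8, 7 and 6 of the 9 Polycomb genes were above that median.

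In wt mESCs the levels ran from Ezh2 through Rnf2, Jarid2, Cbx2, Suz12, Eed, Cbx7 and Bmi1 to Cbx8. Of the 8 pairs of neighbours in that order, only Bmi1 and Cbx8 differed beyond counting error. In wt PILECs the order was Suz12, Ezh2, Cbx2, Eed, Cbx8, Rnf2, Jarid2, Bmi1 and Cbx7, and 6 of 8 neighbouring pairs differed, the exceptions being Eed with Cbx8 and Rnf2 with Jarid2. Cbx8 thus moved from the last place among the 9 to the fifth, and Cbx7 became the last. The counts of pairs that differed cannot be compared between these libraries, which held 2432377 (wt mESCs) and 18773635 (wt PILECs) tags. In wt mESCs a log2 gap of 0.37 (Suz12 and Eed) was within counting error, where a gap of 0.13 (Suz12 and Ezh2) in wt PILECs was not.

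**Figure D1:**
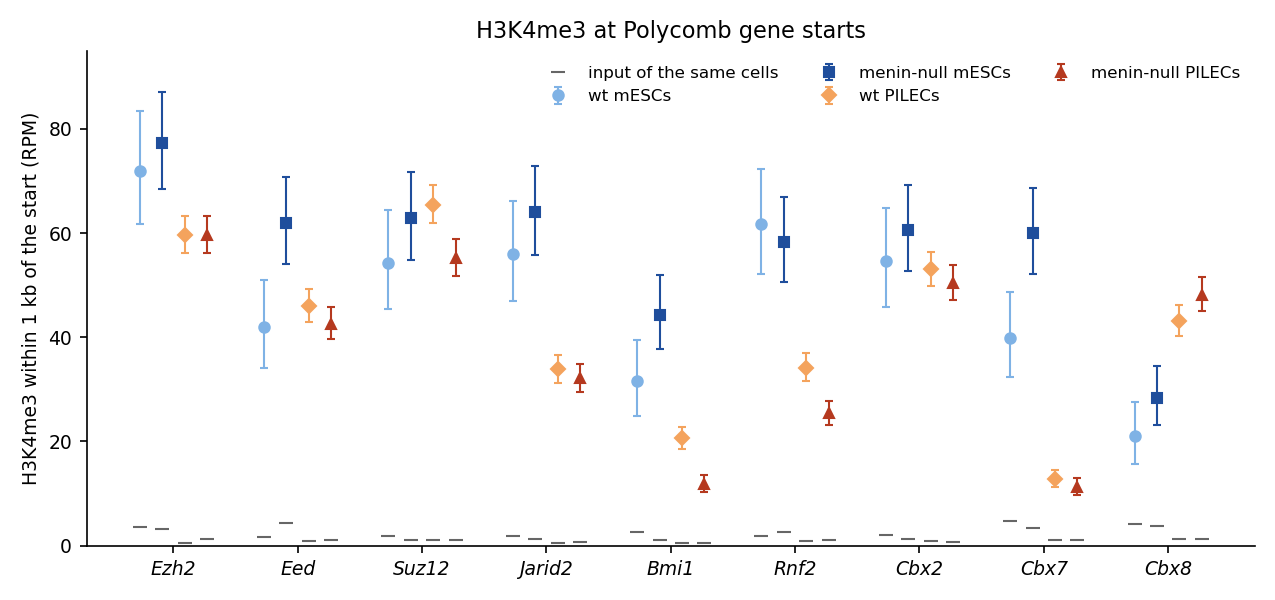
H3K4me3 within 1 kb of the start, in RPM, for each of the 9 Polycomb genes in the 4 H3K4me3 libraries, with 95% Poisson intervals as bars and the input of the same cells as grey dashes. Cbx7 falls from 39.9 and 60.0 RPM in mESCs to 12.8 and 11.3 RPM in PILECs, Cbx8 is higher in both PILEC libraries than in both mESC libraries, and every H3K4me3 value is above its input.

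Whether loss of menin went with a change of H3K4me3 at these genes was asked separately in each cell type. In mESCs, 0 of 9 genes passed 2-fold in either direction, where 1.14% of tested genes were 2-fold or more higher and 0.982% lower in menin-null cells. The median log2 ratio of menin-null to wt was 0.21 over the 9 genes and 0.23 over all tested genes. The interval lay above 0 for 3 genes, Eed, Bmi1 and Cbx7, where it did so for 25.9% of tested genes, and below 0 for 0 genes, against 1.79%. In PILECs, again 0 of 9 passed 2-fold, where 0.0996% of tested genes were higher and 0.655% lower, and the medians were -0.11 for the 9 genes and -0.09 for tested genes. The interval lay below 0 for Suz12, Bmi1 and Rnf2, against 30.1% of tested genes, and above 0 for Cbx8, against 5.88%. Bmi1 was the single gene past 1.5-fold, a fall that 4.26% of tested genes showed, and 0 genes were 1.5-fold or more higher, against 1.06%. In both cell types the median of the 9 genes was thus close to that of all tested genes.

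Differentiation was compared within each genotype, and these comparisons share no library with each other. In wt cells 1 gene was 2-fold or more higher in PILECs, Cbx8, where 6.58% of tested genes were, and 1 was 2-fold or more lower, Cbx7, where 12.8% were. Cbx8 passed narrowly, at a log2 ratio of 1.03, and fell short with 1 tag per position (0.90), a 2 kb window (0.94), equal depth (0.82) or a 500 bp window (0.79). In menin-null cells 0 genes passed 2-fold upward, against 4.82% of tested genes, and 3 passed it downward, Cbx7, Bmi1 and Rnf2, against 21.2%. With libraries scaled by their tags near starts, Rnf2 was at -0.83 and no longer passed, and Cbx8 passed upward. The median log2 ratio of PILECs to mESCs was -0.27 for the 9 genes and -0.01 for tested genes in wt cells, and -0.53 and -0.33 in menin-null cells. The inputs of PILECs were also below those of mESCs at 9 of the 9 starts in wt cells (log2 ratios of -1.90 to -0.57). In menin-null cells they were below at 8 of 9 (-1.62 to 0.03, the exception being Suz12). Over tested genes the median input was lower in PILECs too. It was 0.999 against 2.35 RPM in wt cells and 1.05 against 2.14 RPM in menin-null cells. The part of the inputs in the result was not tested. In these cell populations a mark on fewer cells and less of the mark per cell cannot be told apart.

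**Figure D2:**
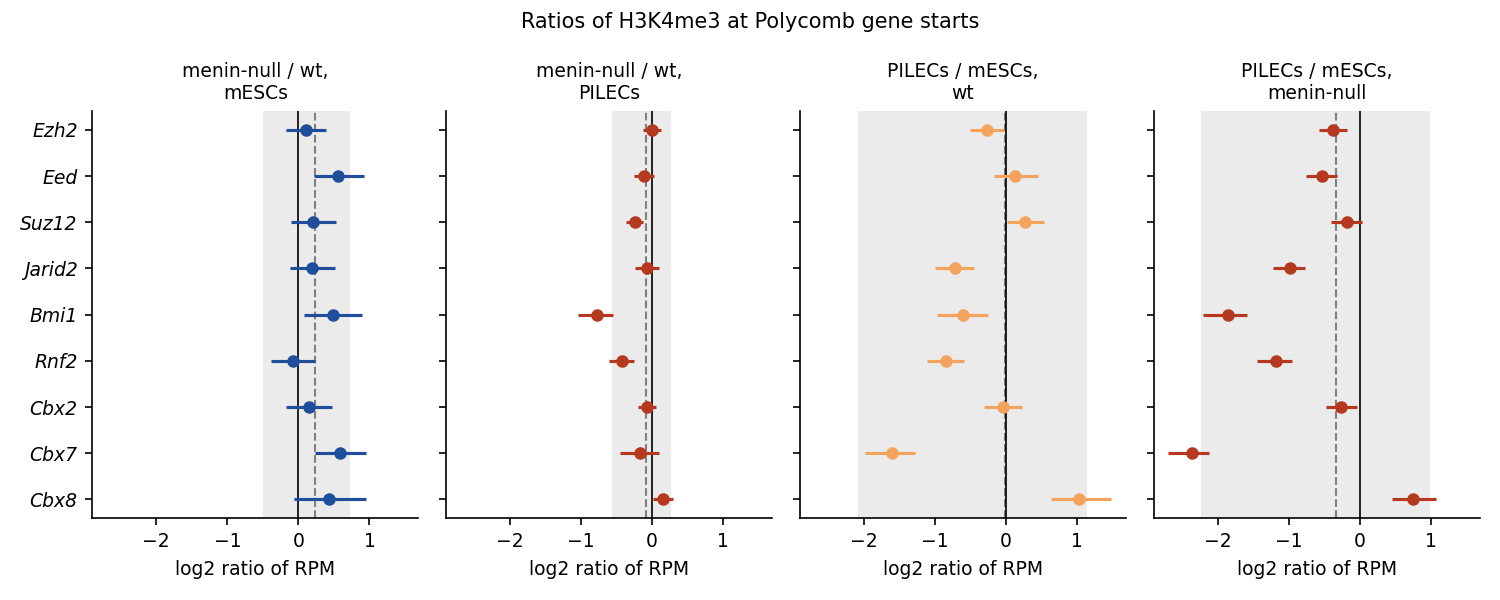
Log2 ratios of RPM at the 9 Polycomb genes in the 4 comparisons, with 95% counting intervals as lines. The dashed line is the median of the tested genes (0.23, -0.09, -0.01 and -0.33 from left to right) and the grey band holds the middle of the tested genes, from the 5th to the 95th percentile. Bmi1 lies to the left of the band in the PILEC genotype panel, and Cbx7 to the left of it in the menin-null stage panel.

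PRC2 has a common core. Ezh2, the methyltransferase, Eed, which binds trimethylated lysine 27, and Suz12, which holds the core together, kept 41.9 to 77.3 RPM in every library, and none of them passed 2-fold in any comparison with this window. With a window of 500 bp on either side, the log2 stage ratio of Ezh2 in menin-null cells was -1.19, past 2-fold. Ezh2, on chromosome 6 with its start at 47545029 on the minus strand, was at 71.9 RPM (wt) and 77.3 RPM (menin-null) in mESCs, and at 59.7 RPM in PILECs of either genotype. The menin-null to wt ratio was 1.07 in mESCs and 1.00 in PILECs, and the interval of the log2 ratio in PILECs, -0.12 to 0.12, allows only small differences between these libraries.

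Eed (chromosome 7, 97129493, minus strand) was at 41.9, 62.0, 46.0 and 42.6 RPM in wt and menin-null mESCs and then wt and menin-null PILECs, the order also used for the genes that follow. The menin-null mESC library was thus the high one, and the other 3 lay close together. In mESCs the log2 ratio of menin-null to wt was 0.56 (0.22 to 0.92), while in PILECs it was -0.11 (-0.25 to 0.03). The mESC interval includes the median of tested genes, 0.23. The input of menin-null mESCs was also higher at this start, at 4.27 RPM against 1.65 RPM in wt (16 and 7 tags), and its part in the result was not tested.

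Suz12 (chromosome 11, 79806608, plus strand) was at 54.3, 62.8, 65.5 and 55.2 RPM. Its log2 ratio of menin-null to wt was 0.21 in mESCs, with an interval of -0.11 to 0.53. In PILECs it was -0.24 (-0.37 to -0.12), a 1.18-fold lower level. In wt cells the stage ratio was 0.27 (0.01 to 0.54), close to the limit of what these tags can separate from 0.

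Jarid2, an accessory subunit that helps bring PRC2 to its targets, had the broadest domain of the 9 genes. Its start with the most H3K4me3 lies on chromosome 13 at 44826143 (plus strand), and the window held 55.9 and 64.0 RPM in wt and menin-null mESCs and 33.8 and 32.1 RPM in wt and menin-null PILECs. The PILEC libraries were below the mESC libraries in both genotypes, with log2 ratios of -0.72 (-0.99 to -0.45) in wt and -0.98 (-1.22 to -0.76) in menin-null cells. The difference lay on the upstream side. There the levels were 35.8, 43.2, 14.4 and 9.27 RPM, with log2 stage ratios of -1.28 in wt and -2.16 in menin-null cells. On the downstream side they were 20.1, 20.8, 19.4 and 22.8 RPM, with ratios of -0.05 and 0.14. Between genotypes in PILECs the sides also went apart, with log2 ratios of menin-null to wt of -0.61 (-0.93 to -0.35) upstream and 0.23 (0.03 to 0.45) downstream. Another annotated start, 1239 bp upstream at 44824904, had a window that overlaps this upstream side and held 44.4, 48.3, 13.7 and 9.0 RPM. At the start 497 bp downstream the stage ratios were -0.23 (-0.51 to 0.07) in wt and -0.12 (-0.37 to 0.14) in menin-null cells, so that no stage difference was detectable there. The separate counting of each side was chosen after the values were seen.

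PRC1 is built on a RING pair. Rnf2 is its ubiquitin ligase and Bmi1 the partner that stimulates it. Both were lower in PILECs than in mESCs in each genotype, and lower in PILECs without menin than in PILECs with it. Rnf2 (chromosome 1, 153347953, minus strand) was at 61.7, 58.3, 34.2 and 25.4 RPM. Menin-null and wt mESCs could not be separated at this depth (log2 ratio -0.08, -0.39 to 0.23), and in PILECs the ratio was -0.42 (-0.61 to -0.25). The stage ratios were -0.84 (-1.11 to -0.58) in wt and -1.18 (-1.44 to -0.95) in menin-null cells, the latter past 2-fold. Nearly all of the Rnf2 signal lay downstream of the start, where it went from 57.1 to 29.8 RPM in wt cells and from 54.0 to 22.1 RPM in menin-null cells.

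Bmi1 showed the largest genotype ratio of the 9 genes in PILECs. Its start lies on chromosome 2 at 18598645 (plus strand), and the 200 bases before it on mm9 (chr2:18598445-18598644, plus strand) are shown for that reason, with each CG dinucleotide in capitals.
Bmi1: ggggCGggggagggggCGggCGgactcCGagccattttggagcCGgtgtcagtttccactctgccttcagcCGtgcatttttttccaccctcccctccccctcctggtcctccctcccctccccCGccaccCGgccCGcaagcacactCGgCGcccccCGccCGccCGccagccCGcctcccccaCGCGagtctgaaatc
These bases hold 17 CG dinucleotides. The window held 77 (wt) and 156 (menin-null) tags in mESCs, and 387 and 210 tags in PILECs, or 31.7, 44.4, 20.6 and 11.9 RPM. Menin-null cells were thus the higher in mESCs and the lower in PILECs. In mESCs the log2 ratio was 0.48 (0.08 to 0.90), and in PILECs it was -0.77 (-1.04 to -0.55), which is 1.71-fold lower. Relative to the median of tested genes these were 0.25 and -0.68, and the mESC interval includes that median of 0.23. Between menin-null mESCs and menin-null PILECs the fall was 3.62-fold, against 1.52-fold in wt cells.

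Both sides of the Bmi1 start were lower in PILECs than in mESCs, and lower in menin-null than in wt PILECs. Between genotypes in mESCs only the upstream side differed beyond counting error. The log2 ratio of menin-null to wt there was 1.01 (0.34 to 1.82), against 0.17 (-0.32 to 0.69) downstream. Upstream, levels were 9.04 and 18.8 RPM in wt and menin-null mESCs and 4.21 and 1.87 RPM in wt and menin-null PILECs. Downstream, they were 22.6 and 25.6 RPM in mESCs and 16.4 RPM in wt PILECs, and menin-null PILECs were lower still (log2 ratio to wt -0.69, -0.99 to -0.44). The start of the neighbouring gene Commd3 lies a few kilobases upstream, outside the window, and the H3K4me3 more than 1 kb upstream of the Bmi1 start, which includes its peak, was between 29.6 and 36.4 RPM in the 4 libraries. Those values lay closer together than the values at Bmi1 itself. The input within 50 kb of the Bmi1 start was slightly higher in menin-null than in wt PILECs (log2 ratio 0.19, 0.05 to 0.33), and its part in the result was not tested. Between genotypes in mESCs, the input within 50 kb had its interval below 0 at Cbx2 (-0.28), Cbx7 (-0.24) and Cbx8 (-0.36), and its part there was not tested.

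**Figure D3:**
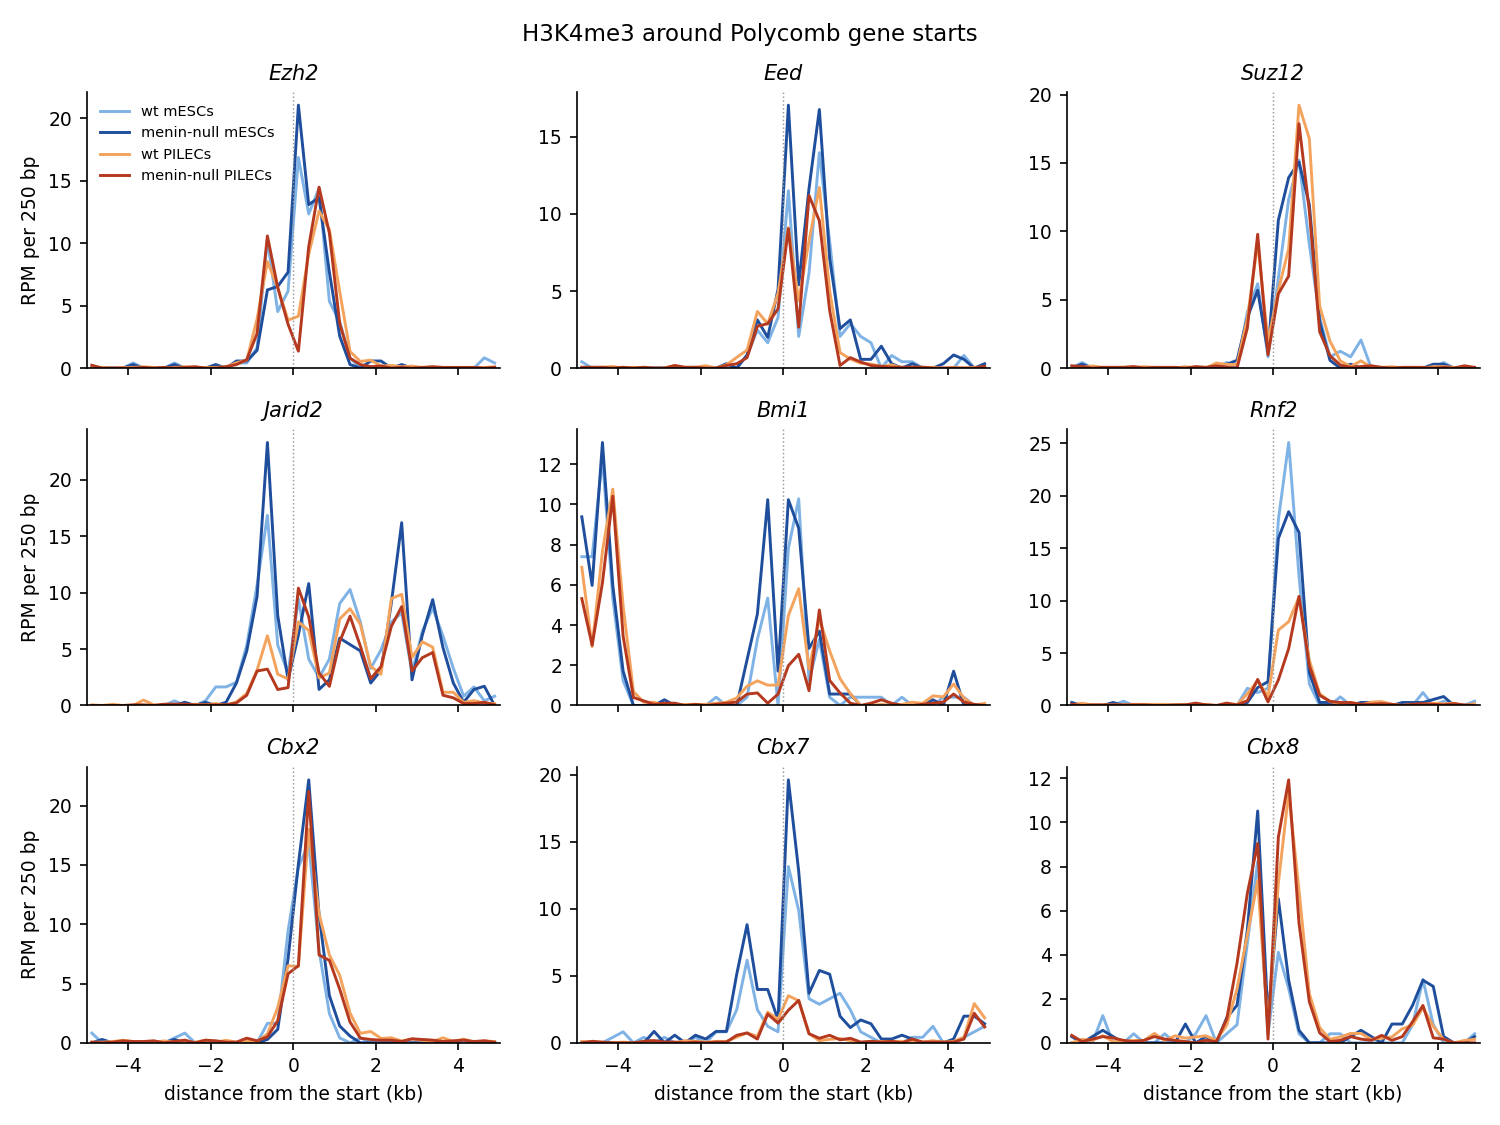
H3K4me3 in RPM per 250 bp from 5 kb upstream to 5 kb downstream of each start, in the direction of transcription, with 1 line per library. The mark of Jarid2 spreads beyond 3 kb downstream, the peak upstream of the Jarid2 start and the peaks at Bmi1 and Cbx7 are lower in both PILEC libraries, and Cbx8 gains a peak just downstream of its start in PILECs.

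The Cbx proteins carry the chromodomain by which canonical PRC1 reads trimethylated lysine 27, and the 3 genes behaved differently. Cbx2 and Cbx8 are neighbours on chromosome 11, with starts at 118884276 (plus strand) and 118902283 (minus strand), and the 200 bases before each start are shown with CG dinucleotides in capitals, since these adjacent promoters had different stage ratios (chr11:118884076-118884275, plus strand, and chr11:118902284-118902483, minus strand, mm9).
Cbx2: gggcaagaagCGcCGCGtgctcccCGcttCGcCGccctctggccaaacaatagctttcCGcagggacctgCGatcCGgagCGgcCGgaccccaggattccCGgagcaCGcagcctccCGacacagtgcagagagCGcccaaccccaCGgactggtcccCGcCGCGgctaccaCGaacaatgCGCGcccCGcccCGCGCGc
Cbx8: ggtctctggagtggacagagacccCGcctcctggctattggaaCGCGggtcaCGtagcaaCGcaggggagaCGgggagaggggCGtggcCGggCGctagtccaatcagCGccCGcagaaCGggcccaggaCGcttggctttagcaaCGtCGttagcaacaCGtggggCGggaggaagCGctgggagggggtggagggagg
The Cbx2 bases hold 26 CG dinucleotides and the Cbx8 bases 18.

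Cbx2 was at 54.7, 60.6, 53.1 and 50.5 RPM. The log2 ratios lay between -0.26 and 0.15 in the 4 comparisons. Cbx8 was at 21.0, 28.4, 43.2 and 48.2 RPM, the only one of the 9 genes with a higher level in PILECs than in mESCs in both genotypes with the interval above 0, where it lay above 0 for 25.4% of tested genes in wt and 16.1% in menin-null cells. The log2 stage ratio was 1.03 (0.63 to 1.48) in wt cells and 0.75 (0.46 to 1.07) in menin-null cells. The gain lay downstream of the start, where wt cells went from 6.99 to 27.8 RPM and menin-null cells from 9.95 to 28.6 RPM. Upstream of the start the levels were 14.0 and 15.4 RPM in wt cells and 18.5 and 19.6 RPM in menin-null cells. Between genotypes in PILECs, Cbx8 was 1.11-fold higher without menin (log2 ratio 0.16, 0.02 to 0.30).

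Cbx7, the Cbx protein most associated with PRC1 in mESCs, had the largest fall of the 9 genes on differentiation. The annotation gives it 6 coding starts on chromosome 15, and the one with the most H3K4me3 lies at 79763082 (minus strand). There the windows held 97 and 211 tags in wt and menin-null mESCs and 240 and 200 tags in the deeper wt and menin-null PILEC libraries, which is 39.9, 60.0, 12.8 and 11.3 RPM. At Cbx7 both PILEC values were below both mESC values, as they were at Ezh2, Jarid2, Bmi1, Rnf2 and Cbx2 too. At Cbx2 the wt stage ratio was within counting error (log2 -0.04, -0.31 to 0.23). The median of tested genes was -0.01 in wt and -0.33 in menin-null cells, and the share of tested genes with this order was not counted. The log2 stage ratio of Cbx7 was -1.60 (-1.99 to -1.29) in wt and -2.36 (-2.69 to -2.12) in menin-null cells, or 3.04-fold and 5.12-fold lower in PILECs. Between genotypes the log2 ratio was 0.58 in mESCs, with an interval of 0.24 to 0.95. In PILECs it was -0.17, with an interval of -0.45 to 0.10.

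The most 5′ start of Cbx7, at 79801549, lies 38467 bp upstream of that start. The bases before both are shown, since the intervals of their genotype ratios in PILECs did not overlap (chr15:79763083-79763282 and chr15:79801550-79801749, both minus strand, mm9).
Cbx7, start with the most H3K4me3: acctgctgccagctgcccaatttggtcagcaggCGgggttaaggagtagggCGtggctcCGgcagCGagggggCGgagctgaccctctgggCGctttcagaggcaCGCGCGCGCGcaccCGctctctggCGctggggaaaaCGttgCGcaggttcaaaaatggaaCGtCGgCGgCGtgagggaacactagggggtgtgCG
Cbx7, most 5′ start: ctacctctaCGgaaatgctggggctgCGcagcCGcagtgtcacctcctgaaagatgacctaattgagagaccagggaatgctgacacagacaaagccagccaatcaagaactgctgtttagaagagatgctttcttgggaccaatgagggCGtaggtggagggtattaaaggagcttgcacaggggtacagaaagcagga
The first holds 20 CG dinucleotides and the second 4. At the 5′ start the tags were 83 and 180 in wt and menin-null mESCs and 70 and 158 in wt and menin-null PILECs, or 34.1, 51.2, 3.73 and 8.94 RPM. The menin-null library was the higher in each cell type. In PILECs the log2 ratio of menin-null to wt was 1.16 (0.85 to 1.69), a 2.23-fold higher level, where 0.0920% of 28273 tested coding starts were 2-fold or more higher. The stage ratio was -3.03 (-3.67 to -2.72) in wt cells and -2.45 (-2.84 to -2.20) in menin-null cells. This start was singled out after its values were seen.

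**Figure D4:**
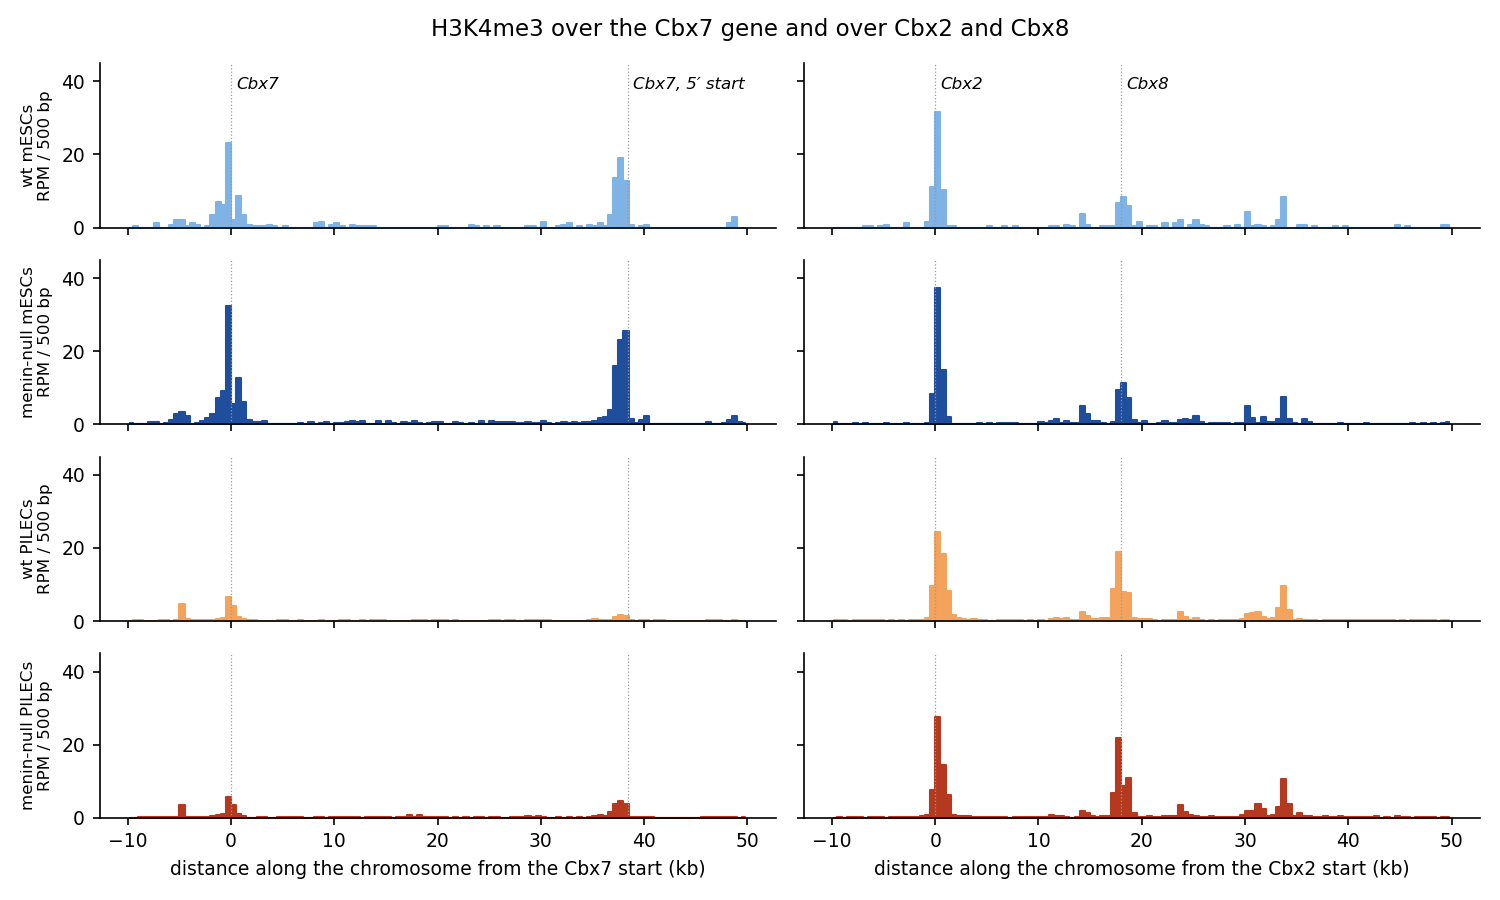
H3K4me3 in RPM per 500 bp over the Cbx7 gene (left) and over Cbx2 and Cbx8 (right), 1 row per library, by distance in kb along the chromosome from the start of Cbx7 or Cbx2, with dotted lines at annotated starts. Both Cbx7 peaks are lower in PILECs, the 5′ one being higher in menin-null (8.94 RPM) than in wt (3.73 RPM) PILECs, while the Cbx2 peak is of like height in all rows.

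Whether the genotype ratio depended on the cell type was tested directly, as the log2 ratio of menin-null to wt in PILECs minus that in mESCs. The interval lay below 0 for 4 of 9 genes, Eed, Suz12, Bmi1 and Cbx7, and above 0 for 0, where it lay below 0 for 34.5% and above 0 for 1.59% of tested genes. The differences were -0.67 (-1.06 to -0.30) for Eed, -0.46 (-0.80 to -0.12) for Suz12, -1.28 (-1.77 to -0.80) for Bmi1 and -0.76 (-1.22 to -0.31) for Cbx7. The median of all tested genes was itself -0.33, and Bmi1 was the single member whose whole interval lay below that value. With libraries scaled by their tags near starts, Bmi1 was also the only one left. At the 5′ start of Cbx7 the difference had the other sign, 0.68 (0.10 to 1.26).

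The mark was wide at several of these genes. At an equal depth of 2432377 tags per library, the run of enriched 200-bp windows at the start had a median width over the 9 genes of 2000 bp (wt) and 1800 bp (menin-null) in mESCs, and of 1800 and 1600 bp in PILECs. Over all tested genes the medians were 1000, 1000, 1200 and 1000 bp. Jarid2 was 5200 bp wide in both mESC libraries and 4400 bp in both PILEC libraries, wider than 99.6% to 99.9% of tested genes. Its H3K4me3 lay mostly away from the start, with 62.5%, 56.4%, 67.4% and 63.8% of the tags within 5 kb lying more than 1 kb from it. Cbx7 went from 2600 and 2800 bp in wt and menin-null mESCs to 200 and 800 bp in wt and menin-null PILECs. Bmi1 went from 1800 bp in both mESC libraries to 1000 bp in wt and 800 bp in menin-null PILECs. With gaps of up to 1 kb joined, the width at Bmi1 in wt PILECs was 1800 bp, as in mESCs. At the full depth of the PILEC libraries the Cbx7 widths were 1600 and 2200 bp and the Bmi1 widths 2400 and 1400 bp, so width depends on depth.

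The other Polycomb genes give the setting. Of 30 further genes of PRC2, PRC1, the H2A deubiquitinase and the demethylases of lysine 27, all had at least 2 RPM on average, and 0 passed 2-fold between genotypes in either cell type. In wt cells 2 were 2-fold or more higher and 1 was 2-fold or more lower in PILECs, and in menin-null cells 2 were higher and 5 lower. Among all tested genes the shares were 6.58% and 12.8% in wt and 4.82% and 21.2% in menin-null cells. Kdm6b, a demethylase that removes the PRC2 mark, went from 1.23 RPM (3 tags) in wt mESCs to 12.7 RPM in wt PILECs and from 2.84 to 9.22 RPM in menin-null cells. The log2 ratio was 2.93 (1.80 to 5.65) in wt and 1.54 (0.78 to 2.78) in menin-null cells. Most of the H3K4me3 at Kdm6b lay outside this window, with 98.7% of the tags within 5 kb more than 1 kb from the start in wt mESCs and 94.6% in wt PILECs. On the downstream side these were 67.4 RPM in wt mESCs and 129.5 RPM in wt PILECs, and 92.7 and 129.6 RPM in menin-null cells, so the gene was already marked in mESCs. Phf1, a PRC2 accessory subunit, was the other gene that was higher in both, going from 9.04 to 21.0 RPM with menin and from 8.81 to 23.6 RPM without it.

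Rybp, a subunit of non-canonical PRC1, was lower in PILECs in both genotypes, going from 65.4 to 24.7 RPM in wt and from 58.9 to 17.0 RPM in menin-null cells. The others past 2-fold downward, in menin-null cells, were Phf19, Pcgf5, Pcgf6 and Kdm2b, with log2 ratios of -1.05 to -1.44. Kdm2b, which brings a PRC1 form to CG-rich DNA, was also 1.61-fold lower in menin-null than in wt PILECs (log2 ratio -0.68, -0.87 to -0.52), the single one of the 30 past 1.5-fold downward there, where 4.26% of tested genes were. The input at the Kdm2b start was lower in menin-null PILECs too (log2 ratio -0.70, -2.37 to -0.005), and its part in the result was not tested.

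**Figure D5:**
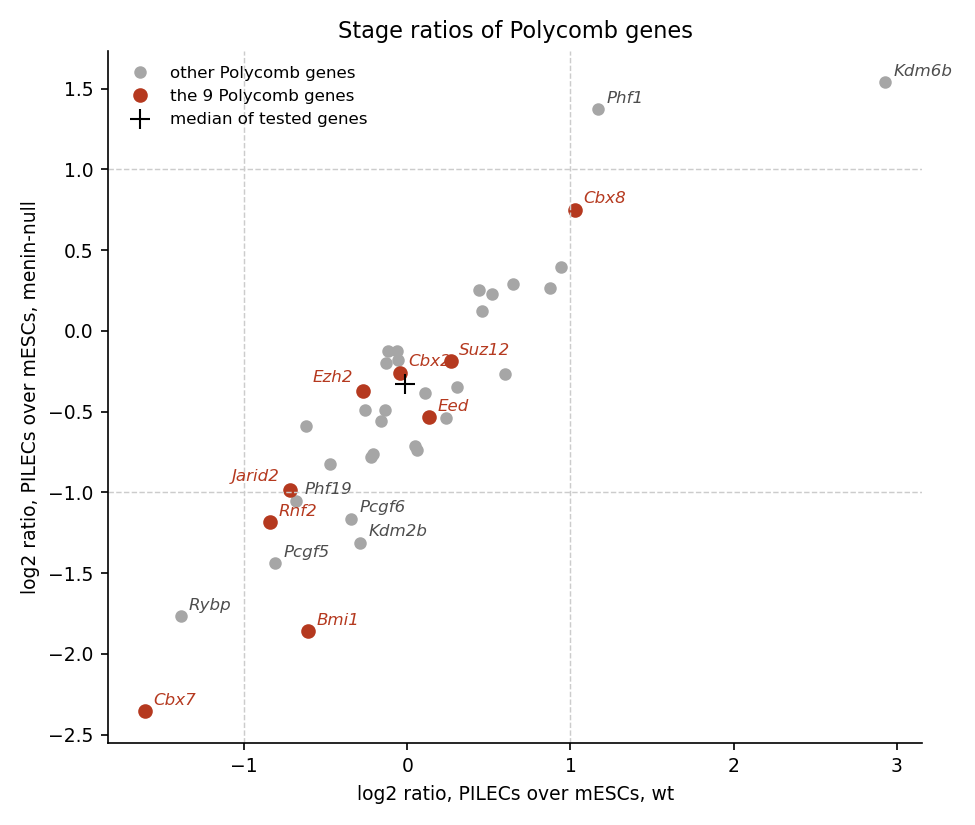
Log2 ratio of PILECs to mESCs in wt cells (horizontal) and in menin-null cells (vertical) for the 9 Polycomb genes (red) and 30 other Polycomb genes (grey), with dashed lines at 2-fold and a cross at the medians of the tested genes (-0.01 and -0.33). Cbx7 is at the lower left (-1.60 and -2.36), Kdm6b at the upper right (2.93 and 1.54), and Cbx8 is the highest of the 9.

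Likeness of levels was measured as the distance between log2 levels over the 4 H3K4me3 libraries. Among the listed Polycomb genes, Cbx2 was nearest to Pcgf1 at 0.14. Bmi1 and Pcgf5 were nearest at 0.76, and Cbx7 was nearest to Bmi1 at 0.86, which leaves Bmi1 and Cbx7 farther from any partner than the PRC2 core, where Suz12 and Bap1 were at 0.24, Ezh2 and Asxl2 at 0.26 and Eed and Phc3 at 0.35.

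The promoters were rich in CG dinucleotides. Within 1 kb of the start the 9 genes had a median of 162, with a range of 102 to 243, against 91 for tested genes, and their median observed to expected ratio was 0.88 against 0.63. Cbx7 and Cbx8, the genes with the largest stage ratios in either direction in wt cells, had the lowest ratios of the 9, each 0.63. In menin-null cells, however, Bmi1 moved more than Cbx8, with log2 stage ratios of -1.86 and 0.75. The observed to expected ratio of Bmi1 was the highest of the 9, at 0.99. In the 200 bases before the start, searched on both strands, GGGCGG (the GC box) was found at 6 of 9 genes and at 61.4% of tested genes, and CCAAT at 5 of 9 against 29.7%. TATAAA was found at 0 of 9 against 3.70%, and TTTGGCGC and TTTCGCGC, forms of the E2F site, at 0 of 9 against 0.527% and 0.398%.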

How the data were processed

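H3K4me3 and input ChIP-Seq libraries, 1 of each per condition and 8 in all, were used as deposited. Per the study's methods, 36-bp reads from sonicated chromatin were placed on mm9 and kept where they matched 1 location with at most 2 mismatches. In the deposited files 1.04% to 1.81% of tags list more mismatches, and these were kept. The aligner is not given in the sources used here. The authors deposited 1 line per tag with its start and end, without normalization, and an alignment score that was not used. Tags at shared positions were kept.

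Each tag was moved to the middle of a 250-bp fragment, and tags within 1 kb of a start were counted and scaled to 1000000 tags per library (RPM). Starts came from the GENCODE M1 annotation of mm9. For genes with several starts of protein-coding transcripts, the start with the highest mean H3K4me3 over the 4 libraries was used. Ratios are log2 with 0.5 RPM added. Intervals are 95% exact conditional binomial (Clopper-Pearson) for ratios and exact Poisson for levels. For differences between stages they are exact conditional odds ratios at the Polycomb genes. The shares and median of all tested genes for these differences used approximate (Wald) limits with 0.5 added to each count. With 1 library per condition no p-value was given. A gene was called at 2-fold. Domain widths joined 200-bp windows (Poisson p up to 1e-05, taking the mean window as background) across gaps of up to 400 bp. Python 3.11.15, numpy 2.4.6, pandas 2.3.3, scipy 1.17.1 and matplotlib 3.10.9 were used, and the counts and intervals were tested on simulated data.

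All 9 genes are named. Other Polycomb genes of a list of 30 are named where past 2-fold or nearest to one of the 9, except 1 that is not reported here. The genes and lists, and the Men1 exons read, were chosen with earlier results of these data known. The values of Commd3, Kdm2b in PILECs and the other Jarid2 and Cbx7 starts were chosen after they were seen.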

Additional observations from a re-analysis of the deposited data

Results flagged for a closer look

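For 4 of the 9 Polycomb genes the ratio of menin-null to wt H3K4me3 differed between PILECs and mESCs by more than counting error. The log2 difference, PILECs minus mESCs, was -0.67 for Eed, -0.46 for Suz12, -1.28 for Bmi1 and -0.76 for Cbx7. The difference itself was tested, between libraries only, and its interval lay below 0 for 34.5% of all tested genes, whose median was -0.33. With libraries scaled by their tags near starts, Bmi1 was the only one of the 4 left. At the most 5′ start of Cbx7 the difference was 0.68 (0.10 to 1.26).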

How the results depend on the processing

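No paired analysis was possible because each condition has 1 library. Among the values recomputed, no alternative reversed a called value. The difference of genotype ratios between stages was not recomputed for other choices of start. At the most 5′ start of Cbx7, counted separately, it was 0.68 (0.10 to 1.26), against -0.76 at the start used. Of the gene-level values recomputed, 486 stayed within the spread of counting error and 54 moved, 30 of them stage ratios in menin-null cells. The number of genes past 2-fold by stage in wt cells was 1 with 1 tag per position, with a 2 kb window and at equal depth, where it was 2, Cbx8 being the gene lost. With a 500 bp window Cbx8 was at 0.79 and Rnf2 passed in its place, and with the most 5′ start 3 genes passed, with Jarid2 at -1.66 beside Cbx7 and Cbx8. In menin-null cells the number was 3 or 4 throughout, but the genes changed. Rnf2 was at -0.83 scaled by tags near starts and -0.85 centred on tested genes, and Cbx8 passed upward in both, while Jarid2 passed with 1 tag per position and with the most 5′ start, and Ezh2 with a 500 bp window. Between genotypes in PILECs the number past 2-fold was 1 with a 500 bp window (Bmi1) and 1 with the most 5′ start (Cbx7), where it was 0. The median stage ratio in menin-null cells was -0.17 scaled by tags near starts, -0.83 at equal depth and -0.20 centred on tested genes, the last chosen after seeing the data. Scaling by tags near starts left 1 gene whose genotype ratio differed between stages, against 4. Without a filter on low values 9.75% of genes passed 2-fold between genotypes in mESCs. The median share of tags more than 1 kb from the start, of those within 5 kb, was 32.0% in wt and 22.7% in menin-null mESCs. In PILECs it was 19.2% (wt) and 14.5% (menin-null). Of those within 3 kb it was 13.6%, 7.17%, 15.3% and 12.4% in the same order, so that mESCs and PILECs changed order in each genotype. With 1 tag per position the share within 5 kb was 22.0% in wt PILECs. The mESC libraries, at 2432377 and 3517028 tags, set the precision.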
